A study of Capra hircus with 20 samples.

Results

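The genes described here are 8 regulators that act upstream in the timing of puberty: the RNA-binding proteins LIN28A and LIN28B, the imprinted genes MKRN3 and DLK1, the transcription factors IRF2BPL and NKX2-1, and the Polycomb subunits EED and CBX7. They were found by gene symbol in a table of 21071 goat genes. The 8 symbols matched 9 rows, because LIN28A is annotated at 2 loci. A total of 7 genes reached 0.1 FPKM or more in 5 or more libraries and were tested, as were 16771 genes of the whole table, and LIN28A did not at either locus. FPKM is the number of fragments divided by the exon length of the gene and the sequencing depth, so levels can be compared between genes. The libraries came from the hypothalamus of 20 female Jining grey goats, a breed with early puberty, kept under the same feeding management and killed at 1 day (D1), 2 months (M2), 4 months (M4) or 6 months (M6) of age. In the labels these ages are 1, 60, 120 and 180 days. Each stage had 5 goats and each goat gave 1 strand-specific library depleted of rRNA. No goat was treated, and stage was the only factor of the design.

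Puberty begins when the hypothalamus raises its release of GnRH, the peptide that drives the pituitary gonadotropins, after a long juvenile pause. Genetic studies have placed the members on this pathway. LIN28A and LIN28B bind the precursors of the let-7 microRNAs and block their maturation, and variants near LIN28B are associated with the age at menarche. MKRN3, a makorin E3 ubiquitin ligase expressed from the paternal allele, and DLK1, a paternally expressed non-canonical Notch ligand, both carry loss-of-function mutations in families with central precocious puberty. IRF2BPL, also known as EAP1, and NKX2-1, also known as TTF1, are transcription factors that act on the GnRH promoter and on other genes of the puberty network. EED is the core subunit of Polycomb repressive complex 2 (PRC2) that binds trimethylated histone H3 lysine 27, and CBX7 is a chromodomain subunit of Polycomb repressive complex 1 (PRC1). In the rat hypothalamus these complexes keep Kiss1 silent before puberty.

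The libraries differed from each other within every stage in markers of brain region, which bears on all values below. The summed FPKM of 10 transcription factors that mark hypothalamic nuclei (OTP, SIM1, SIX3, SIX6, LHX1, FEZF1, NR5A1, HMX2, HMX3 and ISL1) had ranges of 1.44 to 16.01, 2.39 to 15.1, 0.0169 to 14.4 and 1.35 to 41.6 over the libraries of D1, M2, M4 and M6. In M4-1, 8 of these 10 genes were listed at 0, and in M4-2 7 of them were, with a sum of 0.381. The 9 markers of other forebrain regions summed to between 14.4 FPKM (M4-5) and 384 FPKM (D1-4). The 5 neuron markers summed to between 72.2 FPKM (M6-3) and 2652 FPKM (M4-1). The 4 mature oligodendrocyte markers, all above 0 in every library, summed to between 89.0 and 3253 FPKM. KLHDC1 alone held 23.9% of the summed FPKM of M2-3 and 9.83% of that of M6-3. Another gene, LOC102181504, held 11.7% in M6-5 and 9.76% in M2-4, so a share of the size in M6-3 was not unusual for the top gene. For KLHDC1 itself, M2-3 (84503 FPKM) and M6-3 (37092 FPKM) were highest, and M4-5 came next (16054 FPKM). M2-1 had the lowest median r with the other libraries of its stage (0.840). That r was 0.856 for M2-3 and 0.876 for M6-3. Values without M4-1 and M4-2, or without M2-3 and M6-3, are given below beside the results that they moved most. In pieces of whole tissue, fewer cells of a type and less RNA per cell cannot be told apart.

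Values were compared between stages on the scale of log2(FPKM + 0.1) with limma across all 16771 genes in the 6 possible comparisons, which share libraries with each other. No member passed the test between any stages. The smallest adjusted p of a member was 0.442 by limma, for CBX7 in M2 vs. D1. With an adjusted p under 0.05 and a log2 fold change of at least 1 in size, the share of all genes called was 0.0537% (9 genes) in M4 vs. D1, 0.00596% (1 gene) for M6 against D1 and 0% in the remaining 4 comparisons. That background depended on the setting: with library quality weights 148 genes were called in M2 vs. D1 and 95 in M6 vs. D1, and with mature oligodendrocyte markers as a covariate 67 in M4 vs. D1, with no member among them. At an unadjusted p under 0.05 the fit held 2616 genes in M2 vs. D1, and 1455 and 1152 genes in the following steps, M4 vs. M2 and M6 vs. M4. Against D1 there were 1460 genes for M4 and 1243 for M6, and 1030 for M6 against M2. Among the members only NKX2-1 in M4 vs. M2 and LIN28B in M6 vs. M4 were below that value. The median log2 fold change of the 7 members was 0.22, -0.40 and 0.58 over the successive steps from D1 through M2 and M4 to M6, beside -0.07, -0.02 and 0.04 for all genes.

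**Figure D1:**
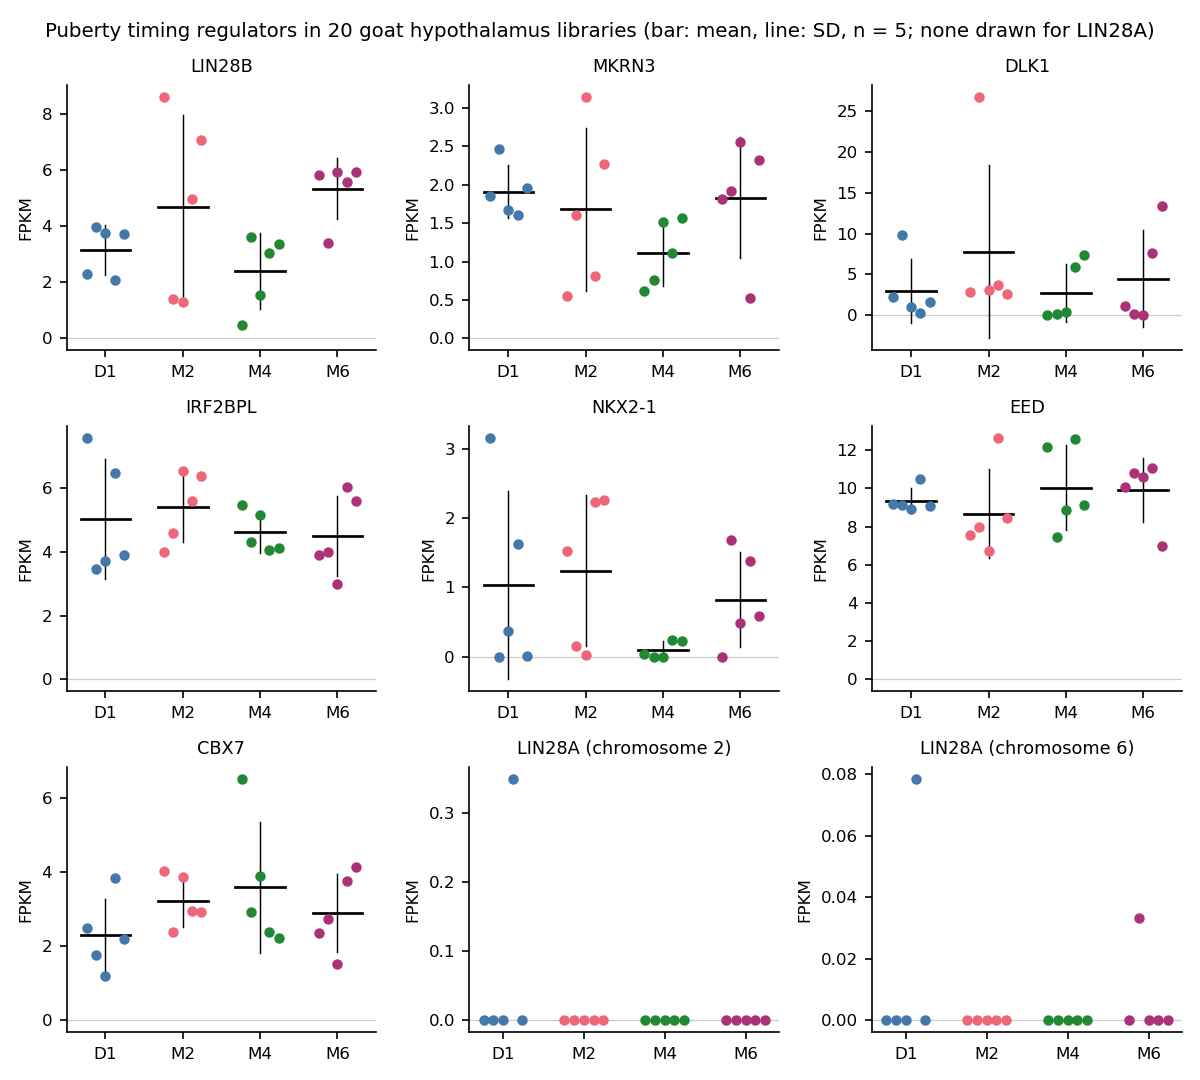
FPKM of each gene (y axis, a scale of its own in each panel) in the 5 libraries of D1, M2, M4 and M6 (x axis). Points are libraries, bars are means and lines are SDs, with none drawn for LIN28A, whose libraries were nearly all listed at 0. DLK1 and NKX2-1 spread over most of their range within a stage, while EED and IRF2BPL stayed within a narrow band.

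The plot of FPKM by stage shows members at very different levels. EED had the highest mean over the 20 libraries (9.49 FPKM), which placed it at percentile 69.9 among genes above 0. IRF2BPL (4.89 FPKM), DLK1 (4.50), LIN28B (3.89) and CBX7 (3.00) followed at percentiles 55.9, 54.2, 51.3 and 46.3. MKRN3 (1.63 FPKM) lay at percentile 35.6 and NKX2-1 (0.801) at percentile 26.8. The mean of DLK1 was well above its median of 2.39 FPKM, and that of NKX2-1 above its median of 0.306 FPKM.

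LIN28A was listed at 0 in nearly all libraries. The locus on chromosome 2 (9253296 to 9266759, ARS1.2) had 0.350 FPKM in D1-4 and 0 in the other 19 libraries. The second locus on chromosome 6 (19037849 to 19038478) spans 630 bp, and it had 0.0785 FPKM in D1-4, 0.0334 FPKM in M6-2 and 0 in the other 18 libraries. Among low values of short genes, FPKM times gene span had a most common value within a library, called a step here. The values of the second locus in D1-4 and M6-2 correspond to about 1.49 steps and under 1 step. Other genes of these libraries also lay below 1 step, so a step need not be 1 fragment, and its worth in fragments is uncertain. Both loci carry the same gene symbol, and how alike their sequences are was not examined. The paper reports that later steps used only reads that mapped uniquely. Reads that fit both loci would then be missing, and the values of both may be too low. Whether the short second locus is a complete gene or a copy was not examined, so its values may not stand for LIN28A. D1-4 was the only library with a value at both loci.

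LIN28B, the paralog of LIN28A, was measured in all 20 libraries. The gene lies on chromosome 9 (32229606 to 32345283). At D1 its values were 2.28, 3.96, 3.75, 2.09 and 3.73 FPKM. At M2 they were 8.63, 1.42, 1.29, 4.96 and 7.07 FPKM. At M4 they were 0.473, 3.61, 1.55, 3.04 and 3.35 FPKM, and at M6 they were 5.83, 3.40, 5.92, 5.59 and 5.94 FPKM. At M6 4 of 5 libraries lay close together near 6 FPKM, above every M4 library, and M6-2 fell inside the M4 range. M2 spanned both the highest value and 2 of the 3 lowest values of the series. Means ± SD (n = 5) were 3.16 ± 0.899, 4.67 ± 3.30, 2.41 ± 1.34 and 5.34 ± 1.09 FPKM from D1 to M6.

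The widest difference of LIN28B was 2.57-fold in M6 vs. M4, with a 95% confidence interval of 1.21 to 5.48 and a log2 fold change of 1.36 (SE 0.52). Its unadjusted p was 0.0168, but 1152 genes were below 0.05 in that comparison and its adjusted p by limma was 0.6996. Without M4-1 and M4-2 the log2 fold change was 1.03 (SE 0.52, adjusted p = 0.996 by limma), and without M2-3 and M6-3 it was 1.32. In M2 vs. D1 the log2 fold change was 0.22 with an interval from -0.87 to 1.31 (0.57 without M2-3 and M6-3), so a rise of 2-fold lies inside the interval. The order of the means, M6, M2, D1 and M4, had no neighbours that differed beyond their spread.

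The LIN28 and let-7 list held 9 tested genes of 11, and none passed the test in any comparison. IGF2BP1 and TRIM71, a let-7 target expressed in early embryos, did not pass the filter. In M2 vs. D1 6 of the 9 were higher and 3 lower, with a median log2 fold change of 0.59 beside -0.07 for all genes. IGF2BP3, an RNA-binding protein and known let-7 target, averaged 4.17, 12.01, 4.67 and 3.98 FPKM from D1 to M6. The libraries of M2 (6.34 to 23.1 FPKM) all lay above those of D1 (3.66 to 4.66 FPKM). M2 vs. D1 gave a log2 fold change of 1.36 (SE 0.38, adjusted p = 0.148 by limma), which with POU2F1 was the smallest adjusted p of any list gene. DIS3L2, the exonuclease that degrades uridylated let-7 precursors, averaged 3.37, 8.24, 6.56 and 7.58 FPKM from D1 to M6. Its log2 fold change was 1.16 (SE 0.38) in M2 vs. D1 and 1.15 in M6 vs. D1, with adjusted p = 0.191 and 0.504 by limma. HMGA2, a chromatin protein and let-7 target, was listed at 0 in 6 libraries and averaged 0.0754 FPKM at D1 and 2.21 at M2, where its SD was 2.57.

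MKRN3 is annotated on chromosome 21 (368224 to 369765), within the region homologous to the Prader-Willi locus. Its values were 1.85, 2.47, 1.68, 1.60 and 1.95 FPKM at D1. They were 0.553, 1.61, 3.15, 0.818 and 2.28 FPKM at M2. At M4 they were 0.619, 0.754, 1.52, 1.11 and 1.57 FPKM, and at M6 1.82, 1.92, 2.56, 0.527 and 2.33 FPKM. The D1 libraries were the most alike, and M2 and M6 each held both high and low libraries. All 5 libraries of M4 were below all 5 of D1, by a gap between 1.57 and 1.60 FPKM. In the 16 libraries where the step described for LIN28A could be estimated, MKRN3 stood at about 21.3 to 101 steps, with a median of 73.5.

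Means ± SD (n = 5) of MKRN3 were 1.91 ± 0.342, 1.68 ± 1.06, 1.11 ± 0.432 and 1.83 ± 0.788 FPKM from D1 to M6. M4 vs. D1 was the only comparison in which the libraries of a member did not overlap, and 1.93% of all genes did not overlap in that comparison. In the other comparisons, where no member was without overlap, that share was 3.82% for M2 against D1, 1.09% for M4 against M2, 0.775% for M6 against M4, 2.84% for M6 against D1 and 0.757% for M6 against M2. The log2 fold change of MKRN3 in M4 vs. D1 was -0.79 (SE 0.44, interval -1.71 to 0.13), with an unadjusted p of 0.0880 and an adjusted p of 0.646 by limma. It was -0.42 (SE 0.50) without M4-1 and M4-2. Of the other comparisons of this gene, M6 vs. M4 was the next in size, at 0.59 (SE 0.44, adjusted p = 0.819 by limma), and it was 0.22 (SE 0.50) without M4-1 and M4-2.

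MKRN3 varied between libraries beside markers of the oligodendrocyte lineage. Over 98 relations between 7 members and 14 lists of cell type and region markers, tested with permutations of the 20 libraries, the relation of MKRN3 with 5 oligodendrocyte progenitor markers (PDGFRA, CSPG4, OLIG1, OLIG2 and SOX10) had the smallest p. Pearson's r was 0.761 (permutation p = 0.000150, adjusted p = 0.0147) and Spearman's rho was 0.836 (permutation p = 2.0e-05, adjusted p = 0.00196). Pearson's r was 0.860 without D1-4 and M4-1, the libraries farthest from the median of the markers, and 0.718 within stages. It was 0.709 without M2-3 and M6-3 and 0.690 without M4-1 and M4-2. The summed level of these markers was 54.1 to 174, 85.3 to 148, 42.1 to 102 and 72.3 to 159 FPKM in the 4 stages from D1 to M6, and none was listed at 0 in any library. The relation of MKRN3 with the mature oligodendrocyte markers (MBP, MOG, MAG and MOBP) had an r of 0.709 (permutation p = 0.000720, adjusted p = 0.0245) and a rho of 0.588 (permutation p = 0.00724, adjusted p = 0.101), and r was 0.535 without M4-1 and M6-4. With 5 markers of proliferating cells (MKI67, TOP2A, CCNB1, CDK1 and PCNA), MKRN3 had an r of 0.614 (permutation p = 0.00407, adjusted p = 0.0665) and a rho of 0.683 (permutation p = 0.00127, adjusted p = 0.0415), and r was 0.747 without D1-3 and D1-4. With the mature oligodendrocyte markers as a covariate, the log2 fold change of MKRN3 in M4 vs. D1 was -0.45 (SE 0.37). The part of these cells in the level of MKRN3 was not tested.

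**Figure D2:**
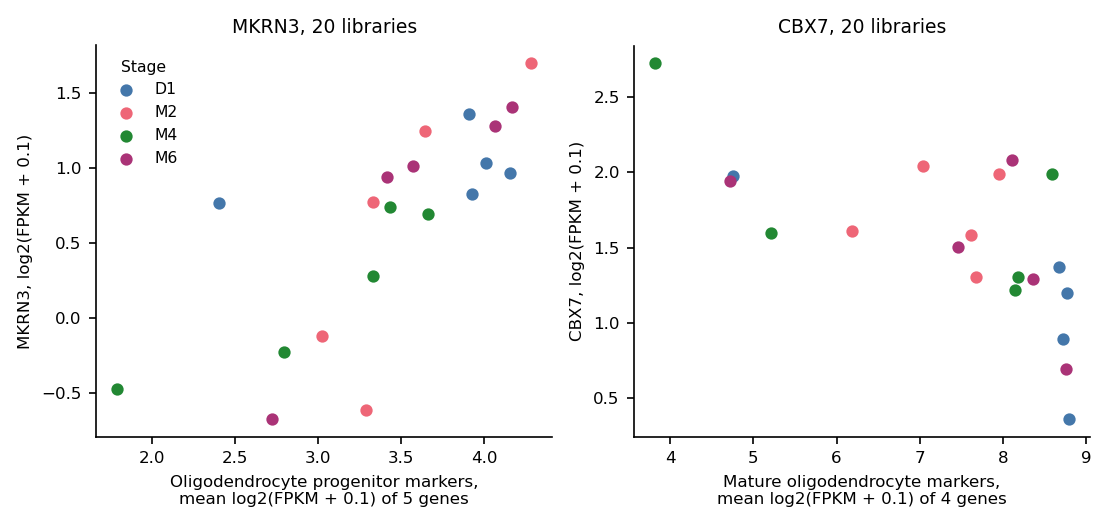
Log2(FPKM + 0.1) of MKRN3 against the mean log2(FPKM + 0.1) of 5 oligodendrocyte progenitor markers (left), and of CBX7 against that of 4 mature oligodendrocyte markers (right). Each point is 1 of 20 libraries, coloured by stage. MKRN3 was higher (r = 0.761) and CBX7 lower (r = -0.659) in libraries with more of these markers.

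The plot of MKRN3 and CBX7 against oligodendrocyte markers shows that the libraries of a stage were spread along both relations rather than gathered. M6-4, with the lowest MKRN3 of all (0.527 FPKM), held 140 FPKM of mature oligodendrocyte markers, and M2-3 and M6-3, with the highest MKRN3 (3.15 and 2.56 FPKM), held 1479 and 2448 FPKM. Other libraries lay off this order: M2-1, with a MKRN3 of 0.553 FPKM, held 1198 FPKM of the markers, and D1-4, with 1.60 FPKM of MKRN3, held only 149 FPKM. Among single genes, those most like MKRN3 over the 20 libraries were TSC22D4 (r = 0.812), SOX10 (r = 0.809), the transcription factor of the oligodendrocyte lineage, and MAP6D1 (r = 0.809). These are descriptions of the best among all tested genes. SOX10 is also in the progenitor list.

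The neighbours of MKRN3 in the imprinted cluster were expressed at higher levels. MAGEL2, 49137 bp away, averaged 4.02 FPKM, NDN, 93914 bp away, averaged 22.5 FPKM and SNRPN, 739275 bp away, averaged 110 FPKM. The paralog MKRN1 averaged 14.9 FPKM and MKRN2 6.88 FPKM. MKRN1 had a log2 fold change of -0.64 (SE 0.22) in M2 vs. D1, with an adjusted p of 0.205 by limma, and UBE3A, the ubiquitin ligase of the Angelman locus, had -0.36 (adjusted p = 0.304 by limma). In the list of imprinted neighbours and makorin paralogs 6 of 8 genes were lower and 2 higher in that comparison, and none passed the test.

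DLK1 lies on the same chromosome 21 (64899151 to 64907338), far from MKRN3, and it had the widest spread of the members. Its values were 2.23, 9.80, 0.947, 0.239 and 1.58 FPKM at D1, and 2.79, 26.8, 3.11, 3.70 and 2.54 FPKM at M2. At M4 they were 0, 0.164, 0.329, 5.93 and 7.32 FPKM, and at M6 1.17, 0.185, 0, 7.68 and 13.4 FPKM. M2-2 alone held 29.8% of the summed FPKM of DLK1 over the 20 libraries. At M4 and at M6 the libraries fell into low and high values, with 3 below 1.2 FPKM and 2 above 5.9 FPKM in each stage. The within-stage SD on the log2 scale was 2.35, at percentile 99.7 of all genes tested.

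The largest estimate of any member was that of DLK1 in M4 vs. M2, and its errors were the largest too. In M2 vs. D1 it was 1.502 (SE 1.33), a fold of 2.83 with an interval from 0.414 to 19.4, and the adjusted p was 0.607 by limma. In M4 vs. M2 it was -2.45 (SE 1.33, unadjusted p = 0.0798, adjusted p = 0.601 by limma). Without M4-1 and M4-2 that difference was -0.84 (SE 1.41). In M4 vs. D1 the log2 fold change was -0.95 and turned to 0.66 without M4-1 and M4-2. In M6 vs. M4 it was 0.58, and -1.04 without the same libraries. These data set no direction for DLK1 between the later stages.

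DLK1 was compared with genes of dopamine neurons, since DDC, described below, was among the genes most like it. SLC6A3, the dopamine transporter, was 59.2 FPKM in D1-2, 56.3 in M2-2, 52.3 in M6-5, 47.1 in M4-5, 37.3 in M2-3, 27.6 in D1-5 and 22.6 in M4-4. DLK1 in these libraries was 9.80, 26.8, 13.4, 7.32, 3.11, 1.58 and 5.93 FPKM. SLC6A3 was 3.31 FPKM in M4-3, where DLK1 was 0.329 FPKM, and below 0.6 FPKM in the other 12 libraries. The 3 libraries highest in DLK1 were also the 3 highest in SLC6A3, but exceptions went both ways. D1-5, with much SLC6A3, had less DLK1 than M2-4 (3.70 FPKM), M2-1 (2.79 FPKM), M2-5 (2.54 FPKM) and D1-1 (2.23 FPKM), which had under 0.6 FPKM of SLC6A3. M6-4 had 0.520 FPKM of SLC6A3 and 7.68 FPKM of DLK1. That library had the most oxytocin (OXT, 413 FPKM), and its vasopressin (AVP) was 201 FPKM.

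The single genes most like DLK1 were RET, a receptor of GDNF family ligands (r = 0.911, rho = 0.881), DDC, which converts L-DOPA to dopamine (r = 0.903, rho = 0.873), and DGKK (r = 0.901, rho = 0.833), all as descriptions over 20 libraries. Within stages the r of DDC with DLK1 was 0.945. TH, the rate-limiting enzyme of dopamine synthesis, was listed at 0 in 7 libraries and reached 56.3 FPKM in M2-2. The list of TH, SLC6A3, DDC, SLC18A2, NR4A2, PITX3 and EN1 was chosen after these values were seen. Its summed level was 2.31 to 236, 3.47 to 319, 1.87 to 231 and 1.69 to 195 FPKM in the 4 stages from D1 to M6. With the mean of these genes as a covariate, the SE of DLK1 in M2 vs. D1 was 0.81 in place of 1.33. The log2 fold change was 1.43 (adjusted p = 0.383 by limma). DDC, in this list, was among the genes with the highest r with DLK1, so a smaller SE was built in. EN1 was 2.91, 3.82, 1.75 and 1.90 FPKM in D1-2, M2-2, M6-5 and M4-5. In M2-3, D1-5 and M4-4 it was 1.86, 1.34 and 1.58 FPKM. It was 0.647 FPKM in M4-3 and under 0.1 FPKM in the other libraries. PITX3 was 0.777 to 4.85 FPKM in the same libraries as EN1 apart from M4-3, and at most 0.607 FPKM (D1-4) elsewhere. Dopamine cells lie in the hypothalamus itself and in the midbrain close behind it, and the part of these cells in the level of DLK1 was not tested.

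**Figure D3:**
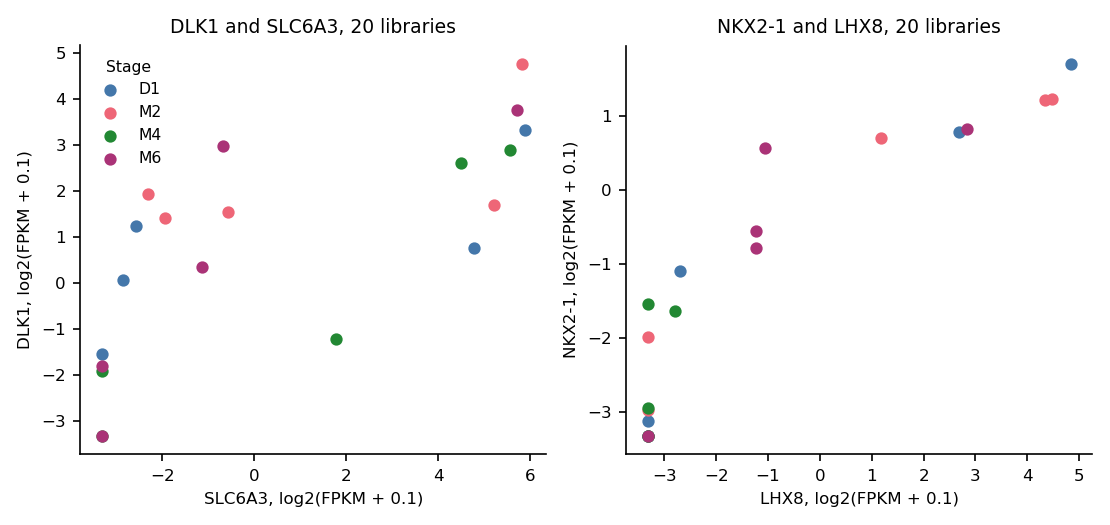
Log2(FPKM + 0.1) of DLK1 against SLC6A3, the dopamine transporter (left), and of NKX2-1 against LHX8, a basal forebrain transcription factor (right), where the lowest point on each axis is a value listed at 0. Each point is 1 of 20 libraries, coloured by stage. High and low libraries of both pairs come from several stages, and all 5 M4 libraries lie at the low end of LHX8.

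DLK1 also followed the astrocyte markers (GFAP, AQP4, ALDH1L1, SLC1A2 and SLC1A3). Pearson's r was 0.678 (permutation p = 0.000750, adjusted p = 0.0245) and rho 0.608 (permutation p = 0.00475, adjusted p = 0.0931), and r was 0.521 without M4-1 and M4-2 and 0.662 without M2-3 and M6-3. The summed astrocyte markers ranged from 1020 to 4061 FPKM and none was listed at 0.

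The neighbours of DLK1 in its imprinted domain were low. RTL1, 141552 bp away, averaged 0.256 FPKM and DIO3, 844930 bp away, averaged 0.103 FPKM with 9 libraries at 0. The paralog DLK2 averaged 1.45 FPKM and was 0 in 2 libraries. In the DLK1 and Notch list none of 10 genes passed the test. In M2 vs. D1 6 were higher and 4 lower, with a median log2 fold change of 0.28, and in M4 vs. M2 2 were higher and 8 lower, with a median of -0.55. DLL1, a canonical Notch ligand, had the smallest adjusted p in M2 vs. D1 (0.351 by limma), at a log2 fold change of 0.75. NOTCH2 was next, at 0.44 (adjusted p = 0.480 by limma).

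NKX2-1 is annotated on chromosome 21 (46122155 to 46125998). It was 3.17, 0, 0.369, 1.63 and 0.0145 FPKM at D1 and 1.53, 0.152, 0.0272, 2.23 and 2.26 FPKM at M2. At M4 it was 0.0296, 0, 0, 0.243 and 0.222 FPKM, and at M6 0, 1.69, 0.480, 1.38 and 0.581 FPKM. All M4 libraries were low, while D1 and M2 held both very low libraries and the highest ones. NKX2-1 was above 0 in 16 of 20 libraries, at least 0.1 FPKM in 13 and above 1 FPKM in 7. The range of M4 overlapped those of D1, M2 and M6.

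In M4 vs. M2 the log2 fold change of NKX2-1 was -2.20 (SE 1.03, interval -4.33 to -0.06), with an unadjusted p of 0.0447 and an adjusted p of 0.569 by limma. In M6 vs. M4 it was 1.90 (SE 1.03, adjusted p = 0.770 by limma) and in M4 vs. D1 -1.55 (SE 1.03, adjusted p = 0.720 by limma). On this scale the pseudocount of 0.1 FPKM understates the change of a gene this low. Without M4-1 and M4-2 the difference of M4 vs. M2 was -1.81 (SE 1.23), and with the hypothalamic regional markers as a covariate it was -1.29 (SE 0.93).

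The level of NKX2-1 went with LHX8, a transcription factor of basal forebrain neurons. LHX8 was 28.5 FPKM in D1-1, 22.1 in M2-5, 20.3 in M2-4, 7.06 in M6-2, 6.28 in D1-4 and 2.17 in M2-1, and NKX2-1 in the same libraries was 3.17, 2.26, 2.23, 1.69, 1.63 and 1.53 FPKM. These were the 6 highest libraries of both genes. In the M4 libraries LHX8 was between 0 and 0.0443 FPKM. The other genes of a basal forebrain list, given below, differed between M4 libraries. CHAT was highest of the 20 libraries in M4-3 (6.002 FPKM) and 0 in the other M4 libraries. SLC5A7 was 2.70 FPKM in M4-3 and at most 0.0784 FPKM in the other M4 libraries. LHX6 was 3.71 FPKM in M4-1 and at most 0.0597 FPKM in the others. ZIC1 was highest of the 20 libraries in M4-2 (21.3 FPKM) and 0.916 to 2.53 FPKM in the other M4 libraries. NKX2-1 was between 0 and 0.0296 FPKM in M4-1, M4-2 and M4-3. As a description over 20 libraries, LHX8 was the gene most like NKX2-1 (r = 0.906, rho = 0.950), before CYP19A1, the aromatase (r = 0.845), and CHODL (r = 0.839).

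Within stages the r of LHX8 with NKX2-1 was 0.891. GNRH1, listed at 0 in 12 libraries, was highest in M2-4 (14.6 FPKM) and D1-1 (7.96 FPKM), both libraries with high NKX2-1, and it was 0 in all 5 M4 libraries. It was only 0.165 FPKM in M2-5 and 0 in M6-2, where NKX2-1 was 2.26 and 1.69 FPKM. With the 10 hypothalamic regional markers NKX2-1 had an r of 0.649 (permutation p = 0.00145, adjusted p = 0.0304) and a rho of 0.622 (permutation p = 0.00444, adjusted p = 0.0931), and r was 0.593 without D1-1 and M6-4, 0.670 without M2-3 and M6-3 and 0.584 without M4-1 and M4-2. With 9 markers of other forebrain regions, NKX2-1 had an r of 0.317 (adjusted p = 0.418 by permutation) and a rho of 0.475 (adjusted p = 0.242 by permutation). Without M4-1 and M4-2 that r was 0.745 and that rho 0.713. Leaving out these libraries was a setting added after the values were seen, and no p was computed for it. The basal forebrain list (LHX8, LHX6, CHAT, SLC5A7 and ZIC1) was also chosen after values were seen. Its summed level was 2.59 to 58.0, 3.47 to 54.9, 1.03 to 21.4 and 2.75 to 17.2 FPKM in the 4 stages from D1 to M6. With its mean as a covariate the log2 fold change of NKX2-1 in M4 vs. M2 was -0.65 (SE 0.80). LHX8, the gene most like NKX2-1, is in the list, so a smaller estimate was built in. The part of the tissue piece taken in the difference of NKX2-1 between M4 and M2 was not tested. The plot of DLK1 and NKX2-1 beside these genes shows high and low libraries of several stages in both pairs, with the exceptions named above.

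IRF2BPL, which spans 3212 bp on chromosome 10 (14842645 to 14845856) and overlaps the locus LOC106502578, stayed in a narrow band. It was 7.58, 3.45, 3.71, 6.48 and 3.90 FPKM at D1, and 4.01, 4.59, 6.53, 5.60 and 6.37 FPKM at M2. At M4 it was 5.45, 4.30, 5.16, 4.06 and 4.11 FPKM, and at M6 3.91, 4.00, 3.00, 6.03 and 5.58 FPKM. The highest and the lowest library differed 2.53-fold, and all 4 stages overlapped. Means ± SD (n = 5) were 5.02 ± 1.88, 5.42 ± 1.10, 4.62 ± 0.646 and 4.50 ± 1.26 FPKM from D1 to M6.

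Over the 6 comparisons the fold of IRF2BPL was between 0.822 (M6 vs. M2) and 1.11 (M2 vs. D1), and the intervals lay between 0.571 and 1.60. On this scale a change of 2-fold between any 2 stages is outside these intervals. On the same scale of steps as MKRN3, IRF2BPL stood at about 295 to 736, with a median of 394, in 16 libraries. The genes most like it were DHX8 (r = 0.785), AMPD2 (r = 0.785) and FBXL14 (r = 0.755). Its paralogs were IRF2BP1, at a mean of 3.14 FPKM, and IRF2BP2, at 27.3 FPKM.

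Among the other transcription factors of the puberty network, none of 10 tested passed the test. In M2 vs. D1 5 were higher and 5 lower, with a median log2 fold change of -0.05. POU2F1, also known as OCT1 and a binder of the GnRH promoter, averaged 14.7, 29.1, 23.2 and 20.9 FPKM from D1 to M6. M2 vs. D1 gave a log2 fold change of 0.99 (SE 0.28), with an adjusted p of 0.148 by limma. GLI3, an effector of hedgehog signalling, was at 0.72 (SE 0.32, adjusted p = 0.281 by limma).

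EED, on chromosome 29 (8684222 to 8717238), was the steadiest member. Its values were 9.17, 9.13, 8.92, 10.5 and 9.09 FPKM at D1, and 7.54, 7.97, 6.74, 12.7 and 8.47 FPKM at M2. At M4 they were 12.2, 7.46, 8.85, 12.6 and 9.13 FPKM, and at M6 10.1, 10.8, 10.6, 11.1 and 6.98 FPKM. Each stage overlapped each other stage, and the highest library was 1.88 times the lowest. The within-stage SD on the log2 scale was 0.27, at percentile 6.43 of all genes tested. The fold was between 0.907 (M2 vs. D1) and 1.16 (M4 vs. M2), with intervals between 0.684 and 1.54, so that a 2-fold change between any 2 stages is outside them as well. The genes most like EED of those reported here were PLEKHA3 (r = 0.851) and PIAS1 (r = 0.836).

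The partners of EED in PRC2 did not pass the test either. SUZ12 averaged 11.9 FPKM, and of the 2 alternative methyltransferases EZH1 (6.29 FPKM) was above EZH2 (2.98 FPKM). EZH1 averaged 4.95, 5.72, 7.53 and 6.95 FPKM from D1 to M6. The log2 fold change of EZH1 in M4 vs. D1 was 0.59 (SE 0.20), with an adjusted p of 0.389 by limma. Every M4 library (6.40 to 9.76 FPKM) was above every D1 library (4.36 to 6.21 FPKM), and 1.93% of all genes did not overlap in that comparison. Of the 10 PRC2 genes listed, 5 were higher and 5 lower in M2 vs. D1. RBBP4 and RBBP7, the histone-binding WD40 subunits, had log2 fold changes of -0.59 and -0.67 in that comparison, with adjusted p = 0.221 and 0.258 by limma.

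CBX7, on chromosome 5 (109514413 to 109534692), was 2.48, 1.75, 1.19, 3.83 and 2.19 FPKM at D1 and 4.02, 2.37, 3.87, 2.95 and 2.90 FPKM at M2. At M4 it was 6.51, 2.93, 3.88, 2.37 and 2.22 FPKM, and at M6 2.35, 2.73, 1.52, 3.74 and 4.14 FPKM. D1 held the lowest value and M4-1 the highest, and the stages overlapped. Means ± SD (n = 5) were 2.29 ± 0.990, 3.22 ± 0.6996, 3.58 ± 1.76 and 2.89 ± 1.06 FPKM from D1 to M6. The log2 fold change was 0.55 (SE 0.34, interval -0.17 to 1.26) in M2 vs. D1 and 0.61 (SE 0.34, adjusted p = 0.648 by limma) in M4 vs. D1. Without M4-1 and M4-2 the latter was 0.35 (SE 0.37).

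CBX7 was lower in libraries with more myelin. With the mature oligodendrocyte markers r was -0.659 (permutation p = 0.00155, adjusted p = 0.0304) and rho -0.708 (permutation p = 0.000600, adjusted p = 0.0294), r was -0.491 without M4-1 and M6-4, and r was -0.635 within stages. It was -0.675 without M2-3 and M6-3 and -0.556 without M4-1 and M4-2. The summed markers ranged from 149 to 3045 FPKM in D1 libraries, from 375 to 1479 in M2, from 89.0 to 3253 in M4 and from 140 to 2448 in M6. With them as a covariate, the log2 fold change of CBX7 was 0.41 (SE 0.29) in M2 vs. D1 and 0.37 (SE 0.30) in M4 vs. D1. The part of myelinating cells in the level of CBX7 was not tested. The genes most like CBX7 were NISCH (r = 0.843), PRR7 (r = 0.842) and SLC25A28 (r = 0.838).

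Among other chromodomain subunits of PRC1, CBX6 averaged 13.6 FPKM, CBX8 2.12 FPKM and CBX2 0.133 FPKM. None of the 17 PRC1 genes passed the test, and 8 were higher and 9 lower in M2 vs. D1 with a median log2 fold change of -0.08. RNF2, the catalytic RING subunit, was at -0.60 (SE 0.21, adjusted p = 0.207 by limma) and RYBP at -0.85 (SE 0.34, adjusted p = 0.251 by limma). Of 11 Trithorax genes and histone demethylases, most of which counteract Polycomb silencing, 7 were higher and 4 lower in M2 vs. D1. The smallest p values were those of the methyltransferases KMT2C at 0.71 (SE 0.27) and KMT2B at 0.87 (SE 0.36), with adjusted p = 0.237 and 0.257 by limma.

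**Figure D4:**
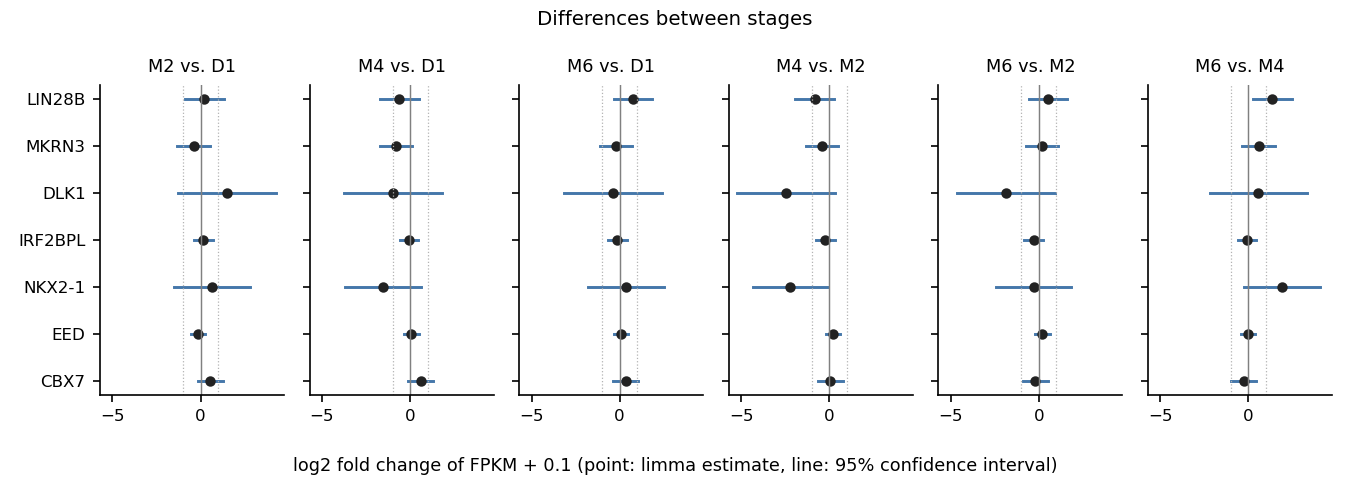
Log2 fold change of FPKM + 0.1 (x axis) of the 7 tested genes (y axis) in the 6 comparisons of stages. Points are limma estimates, lines are 95% confidence intervals and dotted lines mark a 2-fold change. The intervals of EED and IRF2BPL stay inside the dotted lines, and those of DLK1 and NKX2-1 reach far beyond them.

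The plot of log2 fold changes and their intervals shows how unequal the precision was. The within-stage SD on the log2 scale was 2.35 for DLK1, 1.77 for NKX2-1, 0.89 for LIN28B, 0.70 for MKRN3, 0.53 for CBX7, 0.37 for IRF2BPL and 0.27 for EED, beside a median of 0.57 for all genes tested. Stage held 27.4% of the variance of LIN28B, 22.2% of that of NKX2-1 and between 8.98% and 19.95% of that of the other members, beside a median of 18.2% for all genes.

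The members were largely unrelated to each other over the 20 libraries. Of 21 pairs, IRF2BPL and CBX7 had the highest correlation (r = 0.618, permutation p = 0.00364, adjusted p = 0.0764). Spearman's rho of this pair was 0.653 (permutation p = 0.00229, adjusted p = 0.0481), r was 0.673 without M6-3 and D1-1, and r was 0.696 within stages. The other 20 pairs had adjusted p of at least 0.407 by permutation. MKRN3 and CBX7, which went in opposite directions with myelin markers, had an r of -0.441 (permutation p = 0.0515, adjusted p = 0.407) and a rho of -0.389 (permutation p = 0.0918, adjusted p = 0.643), and r was -0.351 without M2-1 and M6-4.

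The genes of the downstream puberty network, GNRH1, KISS1 and related neuropeptides and receptors, were a list of 9, of which KISS1 and NPVF did not pass the filter. None of the 7 tested passed the test. In M4 vs. M2 all 7 had lower estimates, with a median log2 fold change of -1.46, and in M6 vs. M4 all 7 had higher ones, with a median of 1.31. The medians of all genes were -0.02 and 0.04. Both comparisons use the same M4 libraries, so the fall and the rise are not independent of each other. The regional markers named above were also lowest in 2 of the M4 libraries, M4-1 and M4-2. Without these, 5 of the 7 were lower in M4 vs. M2 (median -0.61) and 5 higher in M6 vs. M4 (median 1.31). Without M2-3 and M6-3, 6 of the 7 were lower in M4 vs. M2 (median -1.73). In M2 vs. D1 ESR1, the estrogen receptor alpha, and TAC3, the precursor of neurokinin B, had the smallest p of the list, at 1.16 (adjusted p = 0.494 by limma) and 0.86 (adjusted p = 0.799 by limma). ESR1 averaged 0.389 FPKM at D1, and its log2 fold change in M6 vs. D1 was 2.35 (SE 0.80, adjusted p = 0.535 by limma). Over the 8 lists, which hold 86 genes and 82 tested ones, no gene was called in any of the 6 comparisons. At an unadjusted p under 0.05, 8 of the 82 were higher and 8 lower in M2 vs. D1. Of all genes tested, 15.6% were below that value there. The numbers were 2 and 8 for M4 against M2 (8.68% of all genes) and 4 and 1 for M6 against M4 (6.87%). They were 2 and 4 for M4 against D1 (8.71%) and 5 and 4 for M6 against D1 (7.41%). For M6 against M2 they were 2 and 2 (6.14%). Whether the lists exceeded these shares was not tested.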

How the data were processed

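Total RNA of 20 hypothalamus samples was sequenced as strand-specific libraries. The authors trimmed reads with fastp, aligned them with HISAT2 2.0.5 to ARS1.2, assembled transcripts with StringTie 1.3.3b and deposited FPKM values per gene. Symbols and positions were taken from RefSeq for ARS1.2, in which 20610 of 21071 IDs were found. Low FPKM values gave a step in 16 libraries, but its worth in fragments is uncertain. Whole reads were not recovered, so no count test was run. The paper reports the read total over all libraries and the range of mapping rates, which were not used here.

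Genes that reached 0.1 FPKM in 5 or more of the 20 libraries were fitted as log2(FPKM + 0.1) with limma 3.58.1 in R 4.3.3, with 4 stages as groups, no block and a variance trend. Benjamini-Hochberg adjustment covered all 16771 genes, and calls needed an adjusted p under 0.05 and a change of 2-fold or more. P values measure the spread between goats of a stage. Correlations used 100000 two-sided permutations in Python 3.11.15 with scipy 1.17.1. The fit was tested on simulated data. Named genes were the members, the 3 genes with the highest r with each, their paralogs and complex partners, and the 2 genes of each list with the smallest p in M2 vs. D1. Further list genes, SLC6A3, TH, AVP, OXT and KLHDC1 were named after their values were seen. The members and lists were chosen with earlier results of these data known, and a few genes were later left out of the lists and are not reported here. Alternatives covered pseudocount, filter, scaling, weights, covariates, libraries left out and a replicate block. Sequences of the genes were not used here.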

Additional observations from a re-analysis of the deposited data

Results flagged for a closer look

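In 31 groups of 5 libraries, 8 held a library whose gap to its nearest neighbour was more than 0.71 of the range of the group, the limit of Dixon's test at 95%, which about 1 in 20 groups passes by chance. LIN28A on chromosome 2 was 0.350 FPKM in D1-4 and 0 in the other D1 libraries. LIN28A on chromosome 6 was 0.0785 FPKM in D1-4 and 0.0334 FPKM in M6-2, and 0 in the other libraries of each stage. LIN28B was 3.40 FPKM in M6-2, and the next lowest M6 library had 5.59 FPKM. DLK1 was 9.80 FPKM in D1-2, above the next D1 value of 2.23 FPKM, and 26.8 FPKM in M2-2, above the next M2 value of 3.70 FPKM. EED was 10.5 FPKM in D1-4, where the other D1 libraries reached at most 9.17 FPKM. EED was 6.98 FPKM in M6-5, where the other M6 libraries had at least 10.1 FPKM. D1-4 appears in 3 of these 8 groups. With 4 of 5 libraries at 0, as in the LIN28A groups, any value above 0 passes this limit.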

How the results depend on the processing

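With 13 other settings, 4 more added after seeing the data and each of the 20 libraries left out in turn, 0 members were called in every comparison, and the smallest adjusted p of a member by limma was 0.234 (CBX7 in M2 vs. D1 with library quality weights). The replicate numbers did not pair the goats: deviations from the stage means had a median r of -0.01 over 30 pairs with the same number and of 0.0044 over 120 other pairs, and 3 of 20 libraries were closest to their own number. With the replicate block 0 members were called. The number of all genes called was less stable, reaching 148 in M2 vs. D1 and 95 in M6 vs. D1 with quality weights and 67 in M4 vs. D1 with myelin markers as a covariate, and no member was among them. The 42 log2 fold changes of the members changed sign in 23 of 666 values, and the cause was not tested beyond the change of setting.

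With quality weights, M6 vs. M2 was -0.039 for MKRN3, M6 vs. M4 -0.62 for DLK1, M6 vs. D1 -0.080 for NKX2-1 and M4 vs. M2 -0.052 for CBX7. With the hypothalamic regional markers as a covariate, DLK1 in M6 vs. M4 was -0.73, IRF2BPL in M4 vs. D1 0.075 and NKX2-1 in M6 vs. D1 -0.035. With the myelin markers, EED in M6 vs. M4 was 0.026 and CBX7 in M4 vs. M2 -0.042. With the basal forebrain genes, IRF2BPL was 0.046 in M4 vs. M2 and 0.12 in M4 vs. D1, and NKX2-1 in M6 vs. M2 was 0.51. With the dopamine neuron genes DLK1 in M6 vs. D1 was 0.29. With a pseudocount of 1, M6 vs. D1 was 0.11 for DLK1 and -0.0045 for NKX2-1, and with median-ratio scaling IRF2BPL in M4 vs. D1 was 0.000550. Without M4-1 and M4-2, DLK1 was -1.04 in M6 vs. M4 and 0.66 in M4 vs. D1, and CBX7 in M4 vs. M2 was -0.20. Without M2-3 and M6-3, DLK1 in M6 vs. D1 was 0.55, IRF2BPL was 0.063 in M6 vs. M4 and 0.0067 in M6 vs. D1, and CBX7 in M6 vs. M2 was 0.069.

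With 1 library left out, 28 of 840 values changed sign. The ranges of the results concerned were -0.092 to 0.57 for LIN28B in M2 vs. D1, -0.35 to 0.17 for MKRN3 in M6 vs. D1 and -0.11 to 0.56 in M6 vs. M2, and -0.26 to 1.51 for DLK1 in M6 vs. M4 and -1.21 to 0.55 in M6 vs. D1. For IRF2BPL they were -0.18 to 0.063 for M6 against M4, -0.17 to 0.11 for M4 against D1 and -0.24 to 0.039 for M6 against D1. For NKX2-1 they were -0.22 to 1.04 in M6 vs. D1 and -0.95 to 0.38 in M6 vs. M2. For EED they were -0.11 to 0.11 for M6 against M4 and -0.013 to 0.17 for M4 vs. D1, and for CBX7 -0.18 to 0.20 in M4 vs. M2. None of these differences was past the threshold to begin with. At its second locus LIN28A stood at about 1.49 steps or fewer in the 16 libraries with a step.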
